A study of Mus musculus with 24 samples.

Results

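The genes of shelterin and telomerase, the protein complexes that cap and extend chromosome ends, were followed across mouse embryonic fibroblasts (MEFs) that lacked Myc, Mlx or both. The set held 10 genes of the 41710 in the deposited tables, taken by name: Tert, Terf1, Terf2, Terf2ip, Tinf2, Pot1a, Pot1b, Acd, Rtel1 and Wrap53. In primary cells, Rtel1, Terf1 and Tinf2 fell when Myc was lost, to between 70.4% and 76.1% of their WT means in MycKO and between 62.4% and 67.7% in DKO cells, while Tert did not pass the test in any primary comparison. Against WT, 3 of the 10 members passed in primary MycKO and 4 in primary DKO cells. Of all genes 42.3% and 49.5% passed there, 21.9% and 25.5% as lower. In immortalized cells the same losses went with other members: Tert and Acd rose and Pot1a fell in both MycKO and MlxKO cells. No member passed the test in immortalized DKO cells against WT. Of all genes, 48.0%, 38.9% and 18.9% passed it in immortalized MycKO, MlxKO and DKO cells. The members that passed in immortalized MycKO cells no longer did so when only the groups compared entered the fit.

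Shelterin coats the repeated DNA of telomeres and hides chromosome ends from the DNA damage machinery. Terf1 (TRF1) and Terf2 (TRF2) bind double-stranded telomeric DNA, Terf2ip (RAP1) rides on TRF2, Tinf2 (TIN2) bridges the DNA-binding subunits, and Acd (TPP1) joins TIN2 to the POT1 proteins on the single strand and recruits telomerase. Mice have a pair of POT1 genes, Pot1a and Pot1b, where humans have a single gene. Tert is the reverse transcriptase of telomerase, Wrap53 (TCAB1) carries the enzyme to Cajal bodies and telomeres, and Rtel1 is a helicase that unwinds telomere loops and helps replication forks through the repeats. Laboratory mouse cells have long telomeres, and Tert is a textbook target of Myc, a transcription factor that with its partner Max binds the sequence CACGTG. Mlx is the common partner of the Mondo proteins and some Mxd proteins, a related branch of the network that binds similar sequences.

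The data were RNA sequencing of 24 libraries, 3 from each of 8 groups: primary WT, MlxKO, MycKO and DKO MEFs and the same genotypes after immortalization. MEFs came from embryos of day 14 to 16, with cells of at least 6 embryos pooled. The knockout cells carried floxed alleles of Mlx, Myc or both and a Cre-estrogen receptor fusion driven by the ubiquitous ROSA26 promoter, activated with 500 nM 4-hydroxytamoxifen (4OHT), so that the excision took place in culture. The DKO cells lack both genes. Immortalized cells had been transduced with a lentivirus that encodes SV40 T-antigen, a viral protein that inactivates p53 and the retinoblastoma proteins, selected with blasticidin and then treated to excise the floxed genes. By the study's own account immortalized WT control cells were kept without 4OHT, and primary cells received 4OHT or its ethanol vehicle. The drug was withdrawn from knockout cells before later work. Loss of a gene and past exposure to 4OHT thus cannot be told apart in the immortalized comparisons with WT or the interaction. The study calls WT the cells with intact loci, so the same may hold for the primary comparisons with WT. Comparisons of one knockout with another are between treated cells. By the study's account each knockout came from its own floxed line. Genotype and line can therefore not be told apart between knockouts or in the interaction of the losses. Which of the floxed lines served as WT is not stated for these libraries. Nothing says that the 3 libraries of a group came from separate embryo pools. The p-values thus measure the spread between these libraries, which may be technical.

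Values were deposited as CPM, reads of a gene relative to library size. Libraries held 15986856 to 20966163 reads on genes, and 3 reads, taken as the floor, corresponded to 0.145 to 0.196 CPM, which covers counting error only. Myc stood at 89.8 to 100.1 CPM in primary WT, 85.6 to 89.6 in MlxKO, 25.8 to 26.8 in MycKO and 19.9 to 22.9 in DKO libraries. Mlx stood at 20.5 to 26.02 CPM in primary WT, 17.3 to 21.1 in MycKO, 13.01 to 13.97 in MlxKO and 9.73 to 12.0 in DKO libraries. Both were thus lower wherever the label says so. The study checked excision with a DNA assay and the proteins by immunoblot, and reports efficient excision in both kinds of cell. Reads summed over a gene do not measure excision. In immortalized cells Myc was 48.1, 39.9 and 177.5 CPM in the WT libraries, 72.4 to 82.8 in MlxKO, 9.96 to 17.2 in MycKO and 4.25 to 8.02 in DKO libraries, so that WT library 3 stands apart. Mlx was 20.5 to 25.1 CPM in immortalized WT, 22.4 to 27.8 in MycKO, 12.1 to 17.0 in MlxKO and 14.5 to 18.0 in DKO libraries. Its fall passed the test in immortalized MlxKO (adjusted p = 0.00471) and missed it in DKO cells (adjusted p = 0.0694, limma). The 10 fibroblast markers looked at all had a mean of at least 1 CPM in 7 of the 8 groups, and Lum was at 0.573 CPM on average in immortalized MycKO cells. No pluripotent cell marker passed the filter on low values. Of 8 macrophage markers, 7 passed the filter on low values in primary cells, where their summed level was 121 to 232 CPM in WT, 137 to 160 in MlxKO, 19.7 to 24.3 in MycKO and 43.7 to 82.5 in DKO libraries. In immortalized cells that sum was 5.68 to 11.9 CPM, and Ptprc, Adgre1, Laptm5, Tyrobp and Aif1 were under 0.2 CPM in every library. The 5 epithelial markers summed to 16.1 to 19.3 CPM in primary WT and 1.497 to 4.42 in the primary knockout libraries, and the 5 endothelial markers to 13.5 to 14.03 and 2.99 to 7.98 CPM.

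Terf2, Terf2ip and Acd all lie on chromosome 8. On GRCm39, Tert spans chr13:73775006-73800485 on the plus strand, Rtel1 chr2:180961503-180998416 on the plus strand, Tinf2 chr14:55912145-55919475 on the minus strand, Terf1 chr1:15875840-15914280 on the plus strand and Wrap53 chr11:69452580-69471151 on the minus strand. RefSeq promoter windows, from 250 bases before to 50 bases after the transcription start on GRCm38.p6, were held for 9 of the members, the exception being Terf1. They were searched for CACGTG, which reads the same on both strands, and for the GC box GGGCGG, bound by Sp factors, or its reverse complement CCGCCC. The first was found for 1 of the 9 members, Wrap53, in 1 of the 12 windows of members, and in 7.15% of all 32851 windows. Wrap53 has 2 windows, and the other held no match. A GC box was found for 6 of the 9 members, of which some have 2 windows, and in 35.7% of all windows. A count per member and a share per window are not the same measure. No window of a member held both. The 250 bases before the start are shown, 5′ to 3′ on the gene's strand, for the 4 members that the results turn on, with each match in capitals. They lie at chr13:73626661-73626910 for Tert, which has 2 GC boxes, at chr2:181319474-181319723 for Rtel1, which has 1, at chr14:55681818-55682067 for Tinf2, which has no match, and at chr11:69580251-69580500 for Wrap53, where CACGTG begins 124 bases before the start. Tert and Rtel1 are on the plus strand and the others on the minus strand.
Tert: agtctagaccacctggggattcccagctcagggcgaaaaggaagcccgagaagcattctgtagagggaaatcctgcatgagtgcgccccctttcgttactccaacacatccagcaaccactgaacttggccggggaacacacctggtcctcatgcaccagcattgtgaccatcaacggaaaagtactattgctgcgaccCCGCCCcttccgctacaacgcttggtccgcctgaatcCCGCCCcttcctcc
Rtel1: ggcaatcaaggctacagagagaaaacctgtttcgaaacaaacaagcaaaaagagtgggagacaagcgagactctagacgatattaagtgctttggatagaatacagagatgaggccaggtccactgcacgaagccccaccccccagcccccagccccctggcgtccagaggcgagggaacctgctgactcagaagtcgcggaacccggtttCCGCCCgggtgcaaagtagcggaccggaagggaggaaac
Tinf2: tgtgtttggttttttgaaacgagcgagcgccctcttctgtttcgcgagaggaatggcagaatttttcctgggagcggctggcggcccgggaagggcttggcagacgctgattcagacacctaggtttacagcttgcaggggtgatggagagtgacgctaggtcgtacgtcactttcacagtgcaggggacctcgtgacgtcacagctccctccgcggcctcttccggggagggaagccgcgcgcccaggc
Wrap53: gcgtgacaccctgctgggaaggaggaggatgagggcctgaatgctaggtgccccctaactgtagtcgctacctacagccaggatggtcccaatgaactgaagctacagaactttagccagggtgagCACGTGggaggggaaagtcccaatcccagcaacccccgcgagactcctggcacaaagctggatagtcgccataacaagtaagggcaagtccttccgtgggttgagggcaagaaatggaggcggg
A match is a stretch of letters and not a measured binding site, and the absence of a match concerns these letters in this window only.

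Levels of different genes were compared per kilobase of annotated exon. In primary WT cells Acd (4.98 CPM per kb ± 0.570, SD, n = 3), Rtel1 (4.92 ± 0.440), Terf2 (4.796 ± 0.476) and Tinf2 (4.48 ± 0.456) led, and the libraries of each overlapped those of the next. Wrap53 (3.30 ± 0.0732) and Terf2ip (3.03 ± 0.306) followed, then Terf1 (1.64 ± 0.247) and Pot1a (1.44 ± 0.169), then Pot1b (0.963 ± 0.147). Tert was last at 0.545 CPM per kb ± 0.0631, with all 3 libraries below those of Pot1b. By this measure Terf2 stood above Terf1, whose level per kb was 0.348 ± 0.0835 of that of Terf2 within a library, and Pot1a stood above Pot1b, at a ratio of 1.53 ± 0.288. In immortalized WT cells Rtel1 (7.11 CPM per kb ± 1.079), Acd (6.97 ± 0.950) and Tinf2 (6.42 ± 0.330) led, and Tert was again last, at 0.146 ± 0.0416. Tert was last and Pot1b next to last in all 8 groups.

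Primary and immortalized cells are in separately scaled tables, so their levels can be set side by side and were not tested. Tert was 4.98 CPM ± 0.577 (SD, n = 3) in primary and 1.33 ± 0.381 in immortalized WT cells, and was the only member whose immortalized libraries all lay below the primary ones. For 7 others, Terf1, Terf2ip, Tinf2, Pot1a, Pot1b, Acd and Rtel1, every immortalized WT library was above every primary WT library, with ratios of the means from 1.19 for Terf2ip (20.5 against 17.2 CPM) to 1.96 for Pot1a (25.2 against 12.9 CPM). Terf2 and Wrap53 libraries overlapped. How many of all genes shifted in either way was not counted, so these values do not set the members apart from other genes.

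**Figure D1:**
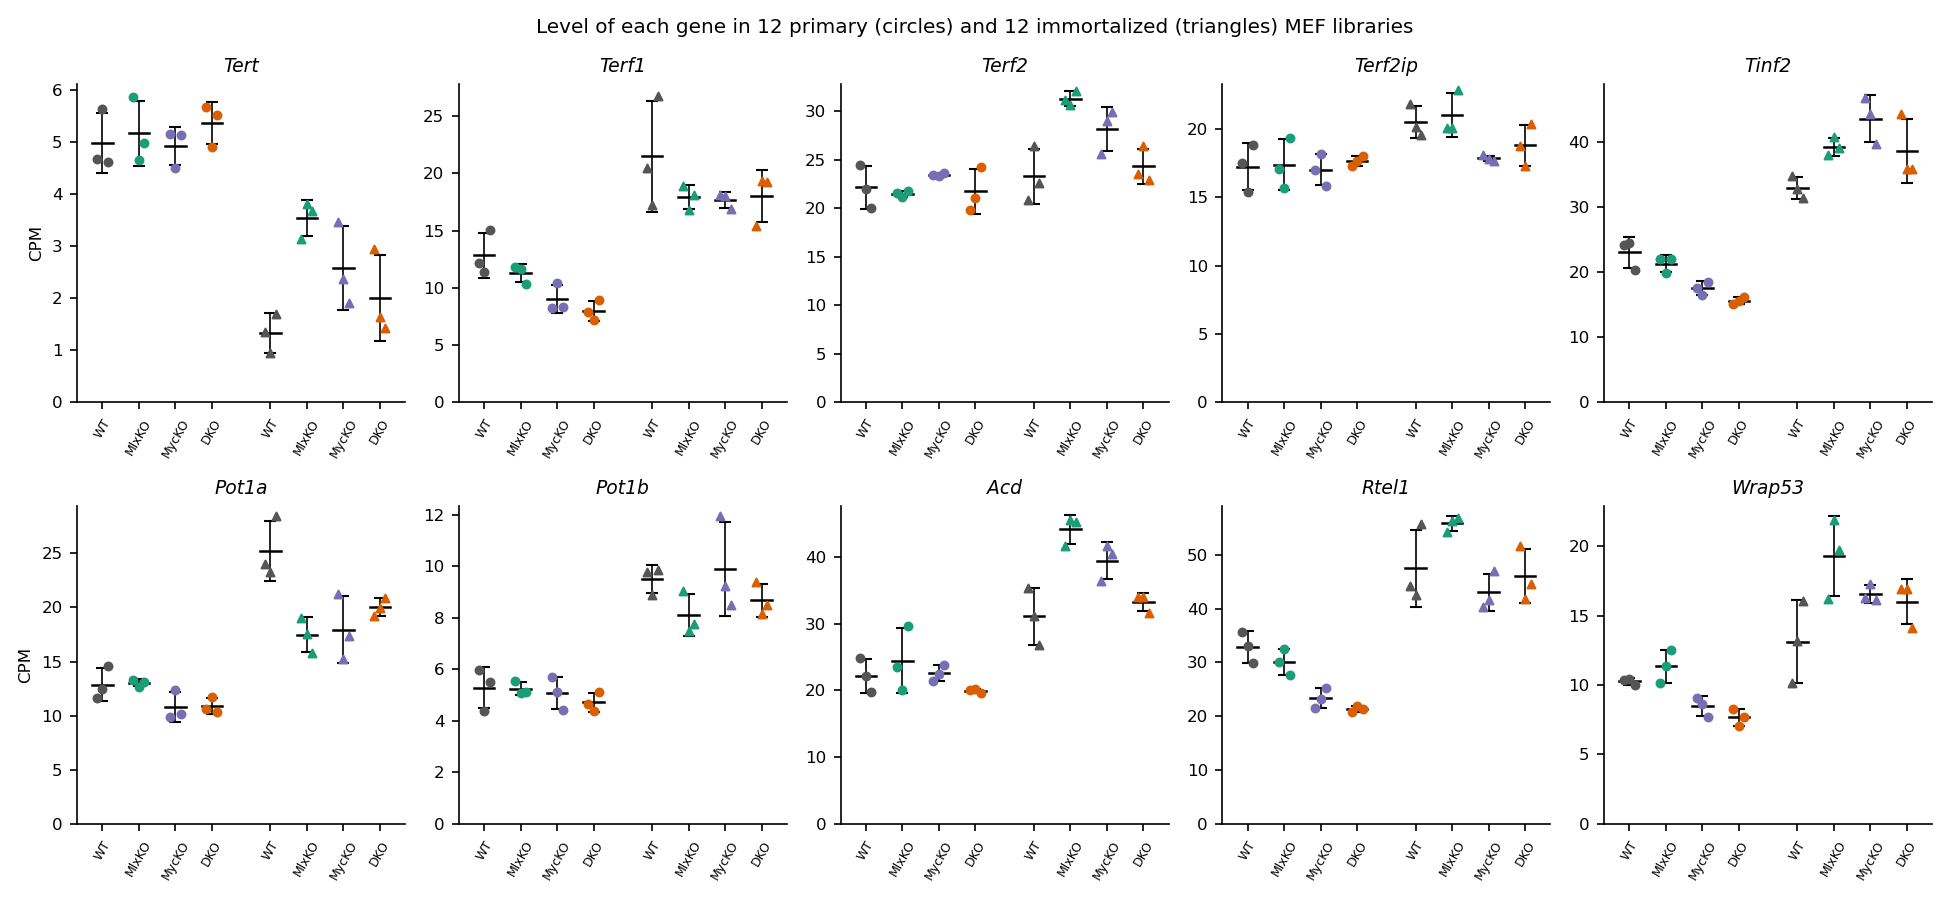
CPM of each of the 10 genes (y axis, from 0, a scale for each gene) in every library of the 4 genotypes (x axis), with primary MEFs as circles, immortalized MEFs as triangles, and the mean and SD of 3 libraries in black. Rtel1, Terf1 and Tinf2 step down from WT to MycKO and DKO in primary cells, while Tert lies between 4.51 and 5.86 CPM in all primary libraries and between 0.943 and 3.80 CPM in immortalized ones.

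The first question was whether loss of Myc in primary cells changed the transcripts of telomere maintenance. Each comparison was a limma fit of log2(CPM + 1), with p-values adjusted over all 13101 genes tested, and all 10 members passed the filter on low values. In MycKO against WT, 3 of the 10 members fell and none rose. Over all genes 21.9% were called lower, 20.4% higher and 42.3% in either direction, so that 3 in 10 was not above the share of calls among all genes. The median log2 fold change of the members was -0.14, against 0.00 over all genes.

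Rtel1, the telomere helicase, was 35.7, 33.1 and 29.8 CPM in the primary WT libraries, 30.2, 32.4 and 27.6 in MlxKO, 21.5, 23.2 and 25.3 in MycKO, and 20.7, 21.8 and 21.3 in DKO. Every MycKO and DKO library was below every WT and MlxKO library. The log2 fold change against WT was -0.48 ± 0.09 (SE, n = 3 per group) in MycKO (adjusted p = 0.000460) and -0.60 ± 0.09 in DKO cells (adjusted p = 4.19e-05, limma). Rtel1 had the smallest adjusted p of the 10 members.

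Terf1, which encodes the TRF1 subunit that restrains telomere length and eases replication of the repeats, was 12.1, 11.4 and 15.02 CPM in primary WT, 11.8, 11.7 and 10.4 in MlxKO, 8.26, 10.5 and 8.37 in MycKO, and 7.92, 7.18 and 8.93 in DKO libraries. The MycKO and DKO libraries lay below all WT libraries, and the highest MycKO library was just above the lowest MlxKO one. Its log2 fold change was -0.46 ± 0.13 in MycKO (adjusted p = 0.00749) and -0.61 ± 0.13 in DKO cells (adjusted p = 0.000743).

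Tinf2, the TIN2 bridge, was 24.2, 24.5 and 20.3 CPM in primary WT, 22.02, 19.9 and 22.1 in MlxKO, 17.6, 16.4 and 18.5 in MycKO, and 15.1, 15.6 and 16.1 in DKO libraries. The groups without Myc again lay below both groups with it, with no overlap. The log2 fold change was -0.37 ± 0.09 in MycKO (adjusted p = 0.00411) and -0.53 ± 0.09 in DKO cells (adjusted p = 0.000184).

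Wrap53, the chaperone that takes telomerase to Cajal bodies, had CACGTG in 1 of its 2 promoter windows. It was 10.3, 10.4 and 9.99 CPM in primary WT, 10.1, 11.4 and 12.5 in MlxKO, 9.09, 8.63 and 7.67 in MycKO, and 8.28, 7.08 and 7.66 in DKO libraries. It did not pass the test in MycKO (log2 fold change -0.25 ± 0.11, adjusted p = 0.0761), although its libraries did not overlap those of WT, and was called lower there when libraries were scaled by their totals (adjusted p = 0.0174, over the alternatives 0.0174 to 0.123). In DKO cells it fell (-0.38 ± 0.11, adjusted p = 0.00887).

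In DKO against WT, 4 of the 10 members thus fell, Rtel1, Terf1, Tinf2 and Wrap53, and none rose, where 49.5% of all genes were called and 25.5% called lower. The median log2 fold change of the members was -0.18. In MycKO against WT, 4 members had libraries that did not overlap those of WT, where 48.1% of all genes did so, and in DKO against WT 4 did so, where the share of all genes was 60.8%.

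The comparison of DKO with MlxKO sets cells without Myc against cells with it, where both lack Mlx. Its group means share no library with those of MycKO against WT. Both comparisons come from the same fit and share its estimate of the spread, so their p-values are not independent. The DKO and MlxKO cells came from different floxed lines, and the part of the line was not tested. The same 4 members fell: Rtel1 by 0.48, Tinf2 by 0.43, Terf1 by 0.45 and Wrap53 by 0.51 on the log2 scale, with adjusted p-values of 0.000387, 0.00127, 0.00784 and 0.00116. In this comparison 49.1% of all genes were called and 25.9% called lower, and the median of the members was -0.25. Libraries did not overlap for 5 members, these and Pot1a, and for 60.9% of all genes. For Rtel1, Terf1 and Tinf2, each estimate of the fall with Myc loss lay within the SE of the other, at -0.48, -0.46 and -0.37 with Mlx present and -0.48, -0.45 and -0.43 with Mlx absent. Of all genes called here 47.3% were higher, and 32.4% when libraries were scaled by their totals, which moved the median of all genes from -0.02 to -0.12. The same scaling moved that share from 48.3% to 31.3% in MycKO, from 42.2% to 53.7% in MlxKO and from 48.5% to 37.2% in DKO against WT. The 3 members were called lower under it in each of the comparisons in which they are reported as such.

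Loss of Mlx alone left the primary members without a call. In MlxKO against WT limma called 0 of the 10, with 0 at an unadjusted p under 0.05 and 0 by edgeR or DESeq2, where 8.88% of all genes were called (3.75% higher and 5.14% lower). In DKO against MycKO, separate lines that both lack Myc and differ in Mlx, 0 were called by all 3 tools. There 0 had an unadjusted p under 0.05, and 21.5% of all genes were called (10.6% higher and 11.0% lower). Libraries of DKO and MycKO did not overlap for 2 members, Tinf2 and Acd, and for 36.9% of all genes. The Myc-by-Mlx interaction, which asks whether the effect of Mlx loss differs between cells with and without Myc, was called for 0 of the 10 by limma, edgeR and DESeq2, again with 0 at an unadjusted p under 0.05, where 13.5% of all genes were called (7.47% higher and 6.07% lower). The 95% intervals of the interaction were -0.27 to 0.27 for Rtel1, -0.37 to 0.39 for Terf1 and -0.33 to 0.23 for Tinf2.

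Tert, the catalytic subunit, was 4.68, 5.65 and 4.62 CPM in primary WT, 5.86, 4.66 and 4.98 in MlxKO, 5.16, 4.51 and 5.13 in MycKO, and 5.67, 4.91 and 5.53 in DKO libraries, from 69 to 111 reads each. All 4 groups overlapped. Its log2 fold change was -0.01 in MycKO, with a 95% interval of -0.28 to 0.26, and 0.09 in DKO cells, with an interval of -0.17 to 0.36. A fall of the size seen for Rtel1 in either group lies outside these intervals. Terf2 and Terf2ip, the TRF2 and RAP1 subunits, had log2 fold changes between -0.04 and 0.08 in the 3 primary knockouts, with interval bounds between -0.23 and 0.28. Acd lay between -0.14 and 0.12, and Pot1b between -0.13 and -0.00. Pot1a was 11.6 to 14.6 CPM in WT, 9.87 to 12.4 in MycKO and 10.3 to 11.7 in DKO libraries, a log2 fold change of -0.23 (adjusted p = 0.101) and -0.22 (adjusted p = 0.113). When libraries were scaled by their totals Pot1a was called in both, at adjusted p-values of 0.0219 and 0.0330, and over the 7 alternative settings these ranged from 0.0219 to 0.185 and from 0.0330 to 0.171.

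**Figure D2:**
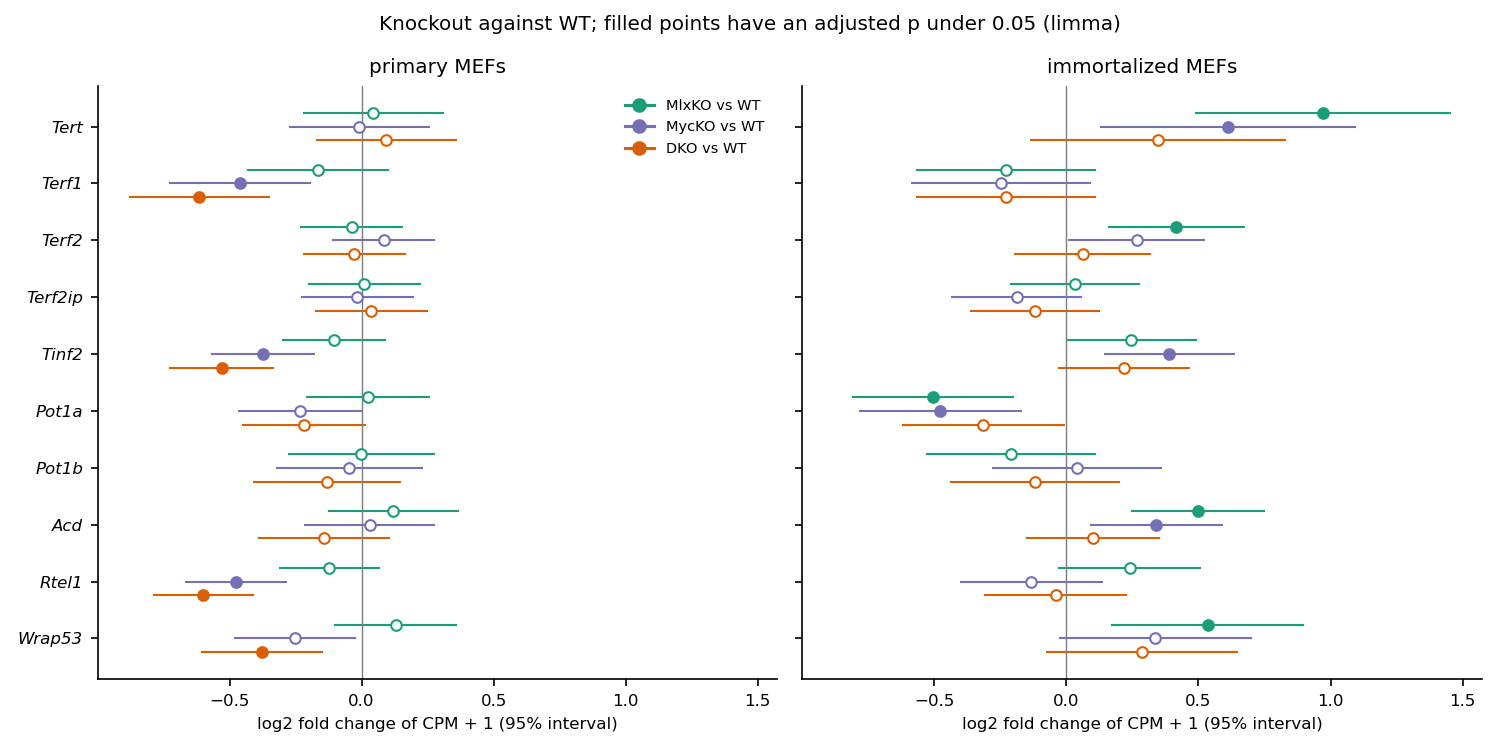
Log2 fold change of CPM + 1 (x axis) of each of the 10 genes (y axis) in MlxKO, MycKO and DKO against WT, in primary (left) and immortalized (right) MEFs, with 95% intervals and filled points for an adjusted p under 0.05. Calls in primary cells are all to the left of 0, from -0.37 for Tinf2 in MycKO to -0.61 for Terf1 in DKO cells, and most calls in immortalized cells are to the right.

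Cells without Myc also differed in markers of proliferation and of macrophages. All 15 proliferation markers fell in primary MycKO and in DKO cells and 12 of 15 fell in MlxKO cells, where 21.9%, 25.5% and 5.14% of all genes were called lower, and their summed level was 1542 to 1619 CPM in WT, 1247 to 1300 in MlxKO, 889 to 1048 in MycKO and 708 to 739 in DKO libraries. All 7 macrophage markers tested fell in MycKO and DKO cells, and in MlxKO cells limma, edgeR and DESeq2 called 0 of 7, with 1 at an unadjusted p under 0.05. The fibroblast markers went the other way, with 8 of 10 higher and 1 lower in both MycKO and DKO cells and 3 higher and 1 lower in MlxKO cells, where 42.3%, 49.5% and 8.88% of all genes were called in either direction. Of the 2 epithelial markers tested, both fell in all 3 knockouts, and of the 2 endothelial markers 1 fell in each and 1 rose in DKO cells. In MycKO and DKO cells most of these markers changed, as did Rtel1, Terf1 and Tinf2 and, in DKO cells, Wrap53. Proliferation, fibroblast, epithelial and endothelial markers also had calls in MlxKO cells, where 0 of the 10 members were called. The part of these markers in the members' values was not tested. In bulk RNA, fewer cells of a kind and less RNA per cell cannot be told apart.

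The immortalized cells allow the same comparisons in MEFs that divide under T-antigen, whereas the study found primary MycKO and DKO cells growth-arrested. By the study's account most immortalized MycKO cells became tetraploid or pseudo-tetraploid, and DKO cells stayed euploid. Loss of Myc and ploidy can therefore not be told apart in the immortalized comparisons that involve MycKO cells, nor in the interaction. Here 12880 genes were tested, and all 10 members passed the filter. In MycKO against WT, 3 of the 10 members rose (Tert, Tinf2 and Acd) and 1 fell (Pot1a), where 48.0% of all genes were called, 24.4% higher and 23.5% lower. In MlxKO against WT, 4 rose (Tert, Acd, Wrap53 and Terf2) and 1 fell (Pot1a), where 38.9% of all genes were called, 19.1% higher and 19.9% lower. Libraries did not overlap those of WT for 6 members in MycKO, where 51.1% of all genes did so, and for 6 in MlxKO, where 49.1% did so. The medians of the members were 0.15 and 0.24, against 0.00 and 0.01 over all genes. Both comparisons use the same WT libraries, whose spread was wide for several members, so the values of each are given side by side. With only the groups compared in the fit, limma called 0 of the 10 in MycKO, where all 4 calls were lost at adjusted p-values of 0.0574 to 0.119, and 3 in MlxKO, where Terf2 and Wrap53 were lost.

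Tert was 1.35, 0.943 and 1.70 CPM in immortalized WT libraries, which were 23, 17 and 28 reads. It was 3.14, 3.80 and 3.67 CPM in MlxKO, 3.48, 2.36 and 1.91 in MycKO, and 2.96, 1.64 and 1.44 in DKO libraries. MlxKO and MycKO lay above all WT libraries, and DKO overlapped WT. The mean was 266% of WT in MlxKO and 194% in MycKO. On the log2(CPM + 1) scale, which understates changes at so low a level, it rose by 0.97 ± 0.22 in MlxKO (SE, n = 3 per group, adjusted p = 0.00564) and by 0.61 ± 0.22 in MycKO cells (adjusted p = 0.0393, limma). The same rises were 1.43 and 0.98 by edgeR on reads. The call in MycKO cells was lost with no filter on low values, with only the groups compared in the fit, and in 6 of 12 fits that left out a library, with adjusted p-values of 0.0339 to 0.0834 over the 7 alternative settings and 0.0171 to 0.150 over the fits without a library.

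Acd, the TPP1 subunit that recruits telomerase, was 35.3, 31.1 and 26.8 CPM in immortalized WT, 41.6, 45.5 and 45.2 in MlxKO, 36.4, 41.6 and 40.4 in MycKO, and 34.0, 34.0 and 31.6 in DKO libraries. Both single knockouts were above all WT libraries, and DKO was within the range of WT. The rise was 0.50 ± 0.12 in MlxKO (adjusted p = 0.00606) and 0.34 ± 0.12 in MycKO cells (adjusted p = 0.0295). Without WT library 3, its lowest, the rise in MycKO was 0.24 and was no longer called (adjusted p = 0.0793), while that in MlxKO was 0.40 and was still called. The call in MycKO was lost in 4 of 12 limma fits that left out a library, with adjusted p-values of 0.0164 to 0.0938 over the 12.

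Pot1a, the POT1 paralog that represses the DNA damage response at the single strand, went the other way, at 24.01, 23.2 and 28.4 CPM in immortalized WT, 19.1, 17.5 and 15.8 in MlxKO, 21.3, 15.2 and 17.3 in MycKO, and 19.2, 19.97 and 20.9 in DKO libraries. All knockout libraries were below all WT libraries. It fell by 0.50 on the log2 scale in MlxKO (adjusted p = 0.0152) and by 0.48 in MycKO cells (adjusted p = 0.0152), and was -0.31 ± 0.14 in DKO cells, which missed the threshold (adjusted p = 0.136). Its paralog Pot1b, which limits resection of the end, was not called in any comparison, and the ratio of Pot1a to Pot1b per kb was 1.64 ± 0.133 in WT, 1.33 ± 0.0949 in MlxKO, 1.12 ± 0.123 in MycKO and 1.43 ± 0.144 with both genes lost.

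Tinf2 was 34.7, 32.8 and 31.3 CPM in immortalized WT, 38.0, 40.8 and 39.0 in MlxKO, 46.8, 44.4 and 39.6 in MycKO, and 44.4, 35.9 and 35.8 in DKO libraries, with all knockout libraries above all WT ones. The rise was called in MycKO (0.39 ± 0.11, adjusted p = 0.0143) and not in MlxKO (0.25 ± 0.11, adjusted p = 0.106) or DKO cells (0.22 ± 0.11, adjusted p = 0.195), though with scaling by library totals it was called in MlxKO as well. Terf2 was 20.9, 26.4 and 22.6 CPM in WT and 31.2, 30.6 and 32.1 in MlxKO libraries, a rise of 0.42 ± 0.12 (adjusted p = 0.0168) without overlap. Wrap53 was 10.1, 13.2 and 16.1 CPM in WT and 16.2, 21.9 and 19.7 in MlxKO libraries, a rise of 0.53 ± 0.17 (adjusted p = 0.0251), with WT library 3 close to the lowest MlxKO library. Without WT library 3, Wrap53 was also called in MycKO (0.48, adjusted p = 0.0172) and Rtel1 in MlxKO cells (0.36, adjusted p = 0.0202).

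Rtel1 and Terf1, which fell in primary cells without Myc, were not called against WT in immortalized ones, except Rtel1 in MlxKO cells when libraries were scaled by their totals or WT library 3 was left out. Rtel1 was 44.2, 42.5 and 55.8 CPM in WT, 54.3 to 56.9 in MlxKO, 40.4 to 47.0 in MycKO and 41.9 to 51.6 in DKO libraries. Terf1 was 20.5, 17.2 and 26.8 CPM in WT and 15.4 to 19.3 CPM over the 9 knockout libraries. For both genes the highest WT library was library 3, the library with the highest Myc. Without it, the log2 fold changes in MycKO cells were -0.01 for Rtel1 and -0.08 for Terf1.

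No member was called in immortalized DKO against WT, where limma, edgeR and DESeq2 gave 0 of 10 and 1, Pot1a, had an unadjusted p under 0.05. In that comparison 18.9% of all genes were called, 10.4% higher and 8.51% lower, and libraries did not overlap for 2 members, Tinf2 and Pot1a, and for 37.1% of all genes. In DKO against MycKO cells 0 were called by each of the 3 tools, 0 had an unadjusted p under 0.05, and 29.4% of all genes were called. Libraries did not overlap for 1 member, Acd, and for 49.7% of all genes. Against MlxKO cells 2 members were lower in DKO, Terf2 by 0.35 (adjusted p = 0.0412) and Acd by 0.40 (adjusted p = 0.0220), where 30.1% of all genes were called and 13.9% called lower. Libraries did not overlap for 5 members there, and for 54.4% of all genes. Tert was -0.62 ± 0.22 in that comparison (adjusted p = 0.0518) and Rtel1 -0.28, and both were called lower with scaling by library totals (Tert -0.75, adjusted p = 0.0204, and Rtel1 -0.45, adjusted p = 0.0111) or with only the groups compared in the fit (adjusted p = 0.0223 and 0.0385). That count rested on single libraries: it was 4 without WT library 3 and 0 without MlxKO library 2 or 3 or DKO library 2 or 3.

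The interaction, tested across all genes, was called for 5 of the 10 members in immortalized cells, where 47.4% of all genes were called. Tert (-1.23 ± 0.32, adjusted p = 0.00711), Acd (-0.74 ± 0.16, adjusted p = 0.00325), Terf2 (-0.62 ± 0.17, adjusted p = 0.00995) and Tinf2 (-0.42 ± 0.16, adjusted p = 0.0499) were lower in DKO cells than the sum of the single losses gives. Pot1a (0.67 ± 0.20, adjusted p = 0.0164) was higher than that sum. Without WT library 3 the values were -1.35, -0.64, -0.60, -0.38 and 0.58, all still called but for Tinf2 (adjusted p = 0.0597), and Wrap53 was then called at -0.73. Because the same WT libraries enter the interaction and both single losses, these are not separate observations. Scaling by library totals moved the median interaction of all genes from -0.01 to -0.18 and the share of higher calls from 49.9% to 37.2%, and Pot1a then missed the threshold (adjusted p = 0.0538, over the alternatives 0.0110 to 0.0538).

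**Figure D3:**
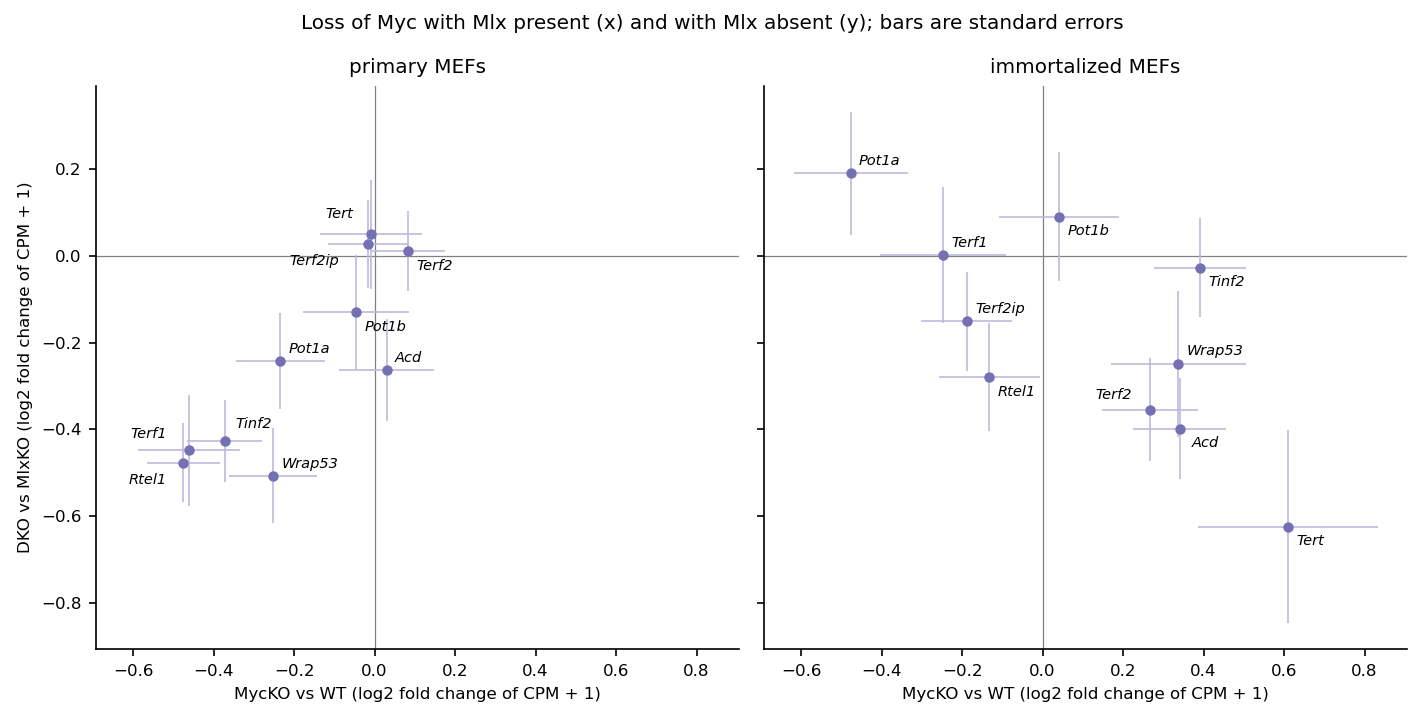
Log2 fold change of CPM + 1 with loss of Myc where Mlx is present (MycKO against WT, x axis) and where it is absent (DKO against MlxKO, y axis), for the 10 genes in primary (left) and immortalized (right) MEFs, with standard errors as bars. Rtel1, Terf1 and Tinf2 sit between -0.37 and -0.48 on both axes in primary cells, and Tert in immortalized cells is at 0.61 on one axis and -0.62 on the other.

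In immortalized cells 1 of 15 proliferation markers rose and 0 fell in MycKO, where 48.0% of all genes were called, and 2 rose and 2 fell in MlxKO, where 38.9% were. In DKO cells, where 18.9% of all genes were called, 0 of the 15 were called by limma, with 2 at an unadjusted p under 0.05, 0 by edgeR and 2 by DESeq2. Their summed level was 3165 to 3917 CPM in WT and 3051 to 3304 CPM in the knockout libraries. Of the 2 macrophage markers tested 1 fell in MycKO, 2 rose in MlxKO and 1 rose in DKO cells, of the 10 fibroblast markers 2 rose and 3 fell, 2 rose and 1 fell, and 1 rose and 1 fell, of the 2 endothelial markers 1 rose in each, and the 1 epithelial marker tested rose in MlxKO cells. The part of these cells in the members' values was not tested. When libraries were scaled by their totals, the median of all genes in immortalized MlxKO against WT moved from 0.01 to 0.16 and the share of higher calls from 49.0% to 70.0%. Beside that shift Tert (1.10) and Pot1a (-0.34) kept their directions, and Pot1a was no longer called (adjusted p = 0.0679, over the alternatives 0.00628 to 0.0679). Under the same scaling Tinf2 moved from 0.25 to 0.41 (adjusted p = 0.0162, over the alternatives 0.0162 to 0.122) and Rtel1 from 0.24 to 0.41 (adjusted p = 0.0148, over the alternatives 0.0148 to 0.197), and both gained a call. In DKO against MlxKO the share of higher calls moved from 54.0% to 29.1%.

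Some members share exon sequence with a gene on the opposite strand. The libraries were directional, but the strand setting of the authors' counting is not given in the sources used here, so shared reads cannot be told apart with certainty. Tinf2 shares 2328 exon bases, 45.3% of its exon length, with Gmpr2, a guanosine monophosphate reductase. Gmpr2 was 20.3 to 21.9 CPM in primary MycKO and 20.8 to 21.7 in WT libraries, a log2 fold change of 0.00 (adjusted p = 0.987), and was not called in any comparison of a knockout with WT. Acd shares 1246 bases with Carmil2, an actin capping regulator, which was at most 1.79 CPM in any library, and 313 bases with Pard6a, a cell polarity gene. Terf2ip shares 14 bases with Kars, a lysyl-tRNA synthetase gene, which fell in primary MycKO (-0.61), MlxKO (-0.25) and DKO cells (-0.79), where Terf2ip was not called. Wrap53 shares 263 bases, 8.46% of its exon length, with Trp53, the gene of the p53 tumour suppressor. Trp53 fell in primary MycKO (log2 fold change -0.55, adjusted p = 6.56e-06) and DKO cells (-0.64, adjusted p = 8.87e-07) and rose in immortalized MlxKO cells (0.62, adjusted p = 0.000818), as Wrap53 did in DKO and immortalized MlxKO cells, and the part of shared reads in this was not tested. At 145 to 154 CPM in primary WT libraries, Trp53 was far more abundant than Wrap53. At most 1.98% of a member's 50-base stretches of transcript occurred in another gene.

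Other genes of telomere maintenance were read from lists. Of 17 genes that assemble the telomerase ribonucleoprotein, 16 were tested, the telomerase RNA Terc being too low in these poly-A libraries. In primary MycKO cells 9 fell and 1 rose, where 21.9% of all genes were called lower and 20.4% higher. In MlxKO cells 3 fell and 0 rose, where the shares of all genes were 5.14% and 3.75%, and in DKO cells 13 fell and 1 rose, where 25.5% of all genes were called lower and 49.5% in either direction. The medians of the list were -0.30 with Myc lost, -0.10 with Mlx lost and -0.44 with both lost, against 0.00, 0.00 and -0.00 over all genes. Dkc1, which encodes dyskerin, the pseudouridine synthase that binds and stabilizes the telomerase RNA, fell by 1.29 in MycKO (adjusted p = 2.53e-08) and by 1.82 in DKO cells (adjusted p = 3.80e-10). Nhp2, another core protein of the particle, fell by 1.11, and the ATPases Ruvbl2 and Ruvbl1 by 0.92 and 0.66 in primary DKO cells. In immortalized cells 5 of the 16 fell and 1 rose in MycKO, 0 fell and 4 rose in MlxKO, and 4 fell and 0 rose in DKO cells. Of all genes 23.5% were called lower and 24.4% higher in MycKO cells, 19.9% and 19.1% when Mlx was lost, and 8.51% and 10.4% when both were. Dkc1 fell there too, by 1.11 in MycKO (adjusted p = 0.00208) and by 0.86 in DKO cells (adjusted p = 0.0237), whereas Nhp2 rose in MycKO (0.63, adjusted p = 0.0422) and MlxKO cells (1.10, adjusted p = 0.00394). Dkc1 was 44.0 to 53.5 CPM in primary WT, 18.4 to 20.5 in MycKO and 12.7 to 13.2 in DKO libraries, and 41.3 to 93.4, 24.3 to 28.5 and 29.1 to 35.7 CPM in the immortalized ones. It was thus lower without Myc in both kinds of cell, while Tert was not called in the primary cells.

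The CST complex and DNA polymerase alpha-primase fill in the strand opposite to the one telomerase extends. Of their 7 genes, 4 fell and 0 rose in primary MycKO and in DKO cells, where 21.9% and 25.5% of all genes were called lower and 42.3% and 49.5% in either direction. All 4 were the polymerase and primase subunits. In MlxKO cells, where 8.88% of all genes were called, limma, edgeR and DESeq2 called 0 of 7, with 1 at an unadjusted p under 0.05. Pola1 fell by 1.41, Prim1 by 1.15, Pola2 by 0.75 and Prim2 by 0.70 in primary DKO cells, where Pola1 had an adjusted p of 7.11e-09. In immortalized cells 1 rose and 1 fell in MycKO, 3 rose and 1 fell in MlxKO, and 1 fell in DKO cells, the one that fell being Pola1 each time. Of all genes 48.0%, 38.9% and 18.9% were called in these comparisons.

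Of 17 genes of telomere end processing and replication, 9 fell and 1 rose in primary MycKO and 10 fell in DKO cells, where 42.3% and 49.5% of all genes were called, 21.9% and 25.5% lower. In MlxKO cells, where 8.88% of all genes were called, all 3 tools called 0, and 6 had an unadjusted p under 0.05. Exo1 and Dna2, nucleases that resect ends, fell by 1.38 and 1.21 in DKO cells, and Fen1 and Rpa1 by 1.02 and 0.63. In immortalized cells 6 fell and 2 rose in MycKO, 7 fell and 2 rose in MlxKO, and 7 fell and 1 rose in DKO cells. In either direction that was 8, 9 and 8 of 17 genes, where 48.0%, 38.9% and 18.9% of all genes were called, so that the count in MycKO was near the share of all genes. Of 8 genes of telomeric chromatin, 3 fell in primary MycKO, among them Daxx by 0.30 and Nr2f2 by 0.26, and 1 fell in MlxKO cells. In DKO cells 1 of the 8 rose and 1 fell. Of all genes 42.3% were called with Myc lost, 8.88% with Mlx lost and 49.5% with both lost. In immortalized cells Atrx, the chromatin remodeller whose loss goes with the alternative lengthening of telomeres, fell by 1.09 in MycKO (adjusted p = 8.41e-05), by 0.68 in MlxKO (adjusted p = 0.00353) and by 0.62 in DKO cells (adjusted p = 0.0116), and Nr2c2, an orphan nuclear receptor, fell in all 3 as well. In immortalized cells 3 of the 8 fell and 2 rose in MycKO, 2 fell and 1 rose in MlxKO, and 2 fell in DKO cells, beside 48.0%, 38.9% and 18.9% of all genes. Of the proliferation markers, the replicative helicase genes Mcm6, Mcm4, Mcm3 and Mcm2 fell by 1.32, 1.25, 1.28 and 1.26 in primary DKO cells.

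**Figure D4:**
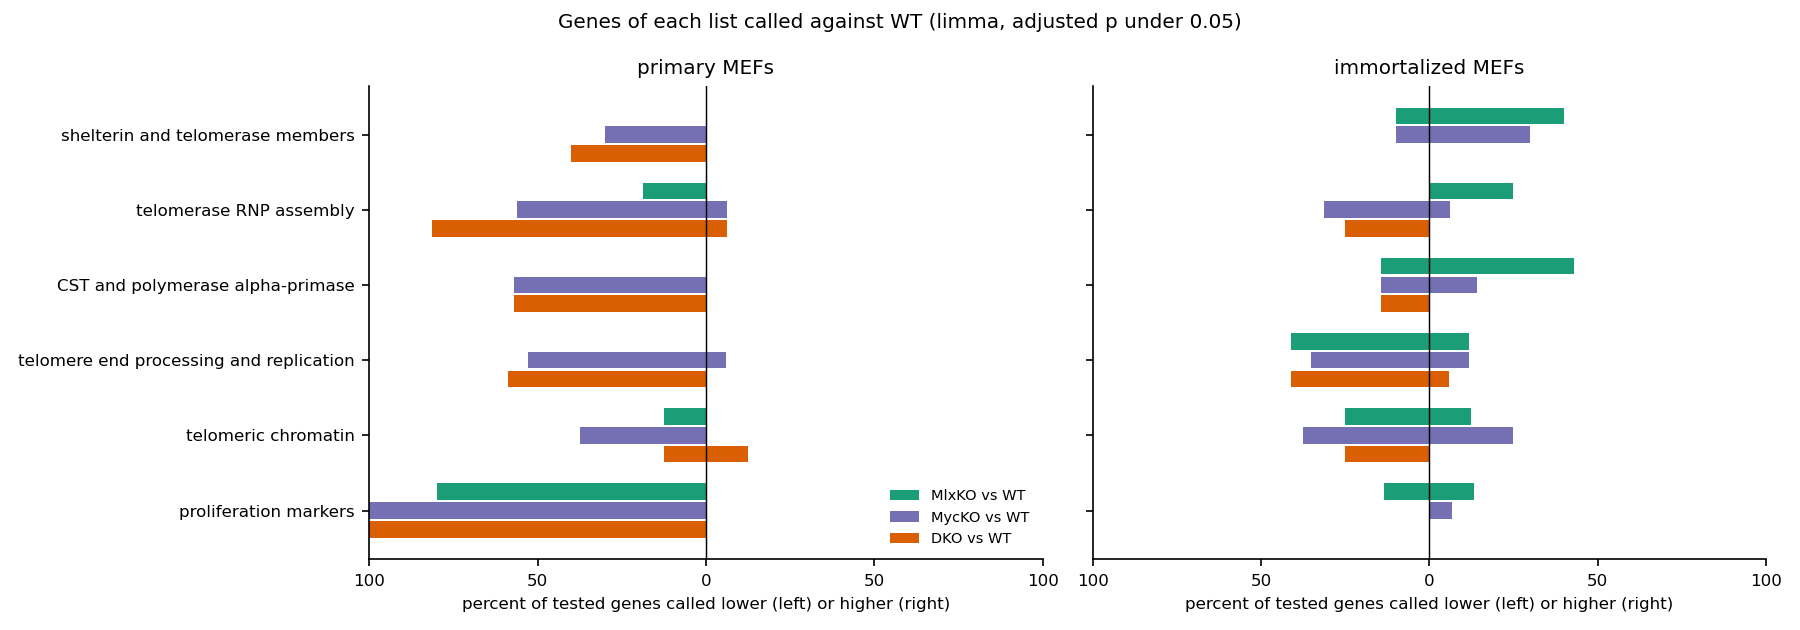
Percent of the tested genes of each list (x axis) called lower (to the left) or higher (to the right) in MlxKO, MycKO and DKO against WT, in primary (left) and immortalized (right) MEFs. In primary cells most bars point left, with all 15 proliferation markers lower in MycKO and DKO and single genes of 3 lists (telomerase assembly, end processing and telomeric chromatin) called higher, and in immortalized cells 1, 4 and 0 of those markers are called in MycKO, MlxKO and DKO while the bars of the 10 shelterin and telomerase genes point mostly right.

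The pattern of a member over the 12 libraries of a table was compared with that of every other tested gene, by the root mean square (RMS) difference between their log2(CPM + 1) deviations from the WT mean. In primary cells the genes nearest to Rtel1 were Cluh (RMS difference 0.0756), Trim27 (0.0801) and G3bp1 (0.0801), where the deviations of Rtel1 itself had a root mean square of 0.396. Nearest to Terf1 were Nup160 (0.0773), Gas2l3 (0.0802) and Rttn (0.0884), against 0.413 for Terf1. The genes nearest to Tinf2 were the ribosomal protein genes Rpl23a (0.0593) and Rplp1 (0.0611) and the translation initiation factor gene Eif3b (0.0639), against 0.337 for Tinf2. These are descriptions of 12 libraries that share depth and scaling.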

How the data were processed

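RNA of 24 MEF libraries, 3 for each of 4 genotypes in primary and in immortalized cells, had been sequenced as poly-A, directional libraries. The authors aligned and counted reads in CLC Genomics Workbench on GRCm39 (per the labels' processing notes) and deposited, for each kind of cell, a table of CPM as a signal after a scaling whose name is not given in the sources used here. The strand setting of the counting is likewise not given. Deposited CPM values were whole multiples of 1 read (100% of values within 0.01 of a whole read), so reads were recovered from them. Depth per library and the value of 3 reads are in the report.

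From the tables, log2(CPM + 1) was fitted with limma 3.58.1 (R 4.3.3, mean trend) over the 4 groups of a table, for genes that reached 1 CPM in 3 or more libraries, and p-values were adjusted over all such genes (Benjamini-Hochberg, threshold 0.05, two-sided). With 3 libraries against 3, an exact permutation test of a single gene cannot go below 0.10 and was not used. Scripts were tested on simulated data first. Both tables were scaled separately, so no test was made between them. Alternatives were a pseudocount of 0.1, no filter, median-ratio scaling, scaling by library totals, fits of only the groups compared, edgeR 4.0.16 and DESeq2 1.42.0 on recovered reads, and leaving out each library. Figures were drawn with matplotlib 3.10.9.

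The members and the lists (telomerase ribonucleoprotein assembly, CST and polymerase alpha-primase, end processing and replication, telomeric chromatin, proliferation, fibroblast, macrophage, endothelial, epithelial and pluripotent cell markers) were chosen with earlier results of these data known. Named were all members, Myc and Mlx, from each pathway list the 4 genes with the smallest adjusted p over the 6 comparisons of a knockout with WT, the genes whose exons overlap a member, and, for the 3 members with the smallest adjusted p, the 3 genes of most similar pattern (predicted genes left out). Lum was named after its values were seen.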

Additional observations from a re-analysis of the deposited data

Results flagged for a closer look

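By the interaction term of the limma fit, the effect of Mlx loss in immortalized cells differed by Myc status for 5 of 10 genes. Of all genes 47.4% were called for it, so that 5 of the 10 members was near that share. The interaction was -1.23 for Tert, -0.74 for Acd, -0.62 for Terf2, -0.42 for Tinf2 and 0.67 for Pot1a, all on the log2 scale, with 3 libraries a group. Tinf2 was the closest to the threshold, with an adjusted p of 0.0499, and was lost in 10 of the 12 fits that left out a library.

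For 3 genes all libraries of the changed group moved one way in primary cells and the opposite way in immortalized cells. How many of all genes did so was not counted. Groups did not overlap for 48.1% of all genes in primary and 51.1% in immortalized MycKO against WT. These shares were 60.8% and 37.1% in DKO against WT, and 60.9% and 54.4% in DKO against MlxKO. Tinf2 was at -0.37 in primary and 0.39 in immortalized MycKO against WT, and at -0.53 and 0.22 in DKO against WT. Wrap53 was at -0.25 and 0.34 in MycKO against WT, and Pot1a at -0.24 and 0.19 in DKO against MlxKO, where the latter was 0.03 when libraries were scaled by their totals (range over the alternatives 0.03 to 0.20). The tables were scaled separately and these differences between them were not tested. Of these values, those of Tinf2 in primary MycKO, immortalized MycKO and primary DKO cells passed the test against WT.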

How the results depend on the processing

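The primary calls of Rtel1, Terf1 and Tinf2 in the 3 comparisons that differ in Myc were kept in each of the 7 alternative settings. So were those of Wrap53 in primary DKO against WT and against MlxKO. The number of members called in primary MycKO against WT was 5 when libraries were scaled by their totals. With only the groups compared in the fit, the number called in immortalized cells was 0 in MycKO and 3 in MlxKO against WT and 4 in DKO against MlxKO, which was also 4 with scaling by library totals. Fits that left out a library gave 3 to 4 calls in primary MycKO, 4 to 4 in DKO against WT, 4 to 5 in DKO against MlxKO and 0 to 0 in the other primary comparisons, and 1 to 4 in immortalized MycKO, 2 to 6 in MlxKO, 0 to 4 in DKO against MlxKO, 4 to 5 in the interaction and 0 to 0 in DKO against WT or MycKO. The low counts came without MycKO library 2 (1 in MycKO) and without MlxKO library 3 (2) or WT library 1 (3) in MlxKO. In DKO against MlxKO the count was also 1 without MlxKO library 1 or MycKO library 2 or 3. The cause of these changes was not tested. Of 820 values of single genes in the other settings 797 stayed on their side of the threshold, 10 lost a call and 13 gained one, and of 1440 values without a library 1388, 39 and 13. No called value changed sign. Uncalled values changed sign in 21 and 70 cases, in which the reported value was at most 0.09 and 0.12 in size. No paired analysis was possible because the library numbers in the tables are not tied to the replicate numbers in the labels. Depth limits Tert most, at 17 to 28 reads in immortalized WT libraries.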
